A study of Homo sapiens with 15 samples.

Results

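Of the 30557 FOXA1 peaks called in parental 22Rv1 cells with DMSO, 4779 were absent from the WX-02-23 list although the lists of WX-02-43, of PladB and of a control siRNA each held them. These are referred to as lost sites. They were chosen from the peak calls themselves, as DMSO peaks that overlapped (1 bp or more) a peak in each of those 3 lists and none in the WX-02-23 list, so their absence from the WX-02-23 list is the definition and not a finding. The 14422 DMSO peaks that were called with WX-02-23 are referred to as retained sites and serve for comparison. The word lost means not called in that list, and the files hold no signal below the calling threshold. The study titled its subject as redirection of FOXA1 by covalent small molecules. The series held 15 samples, 12 of them FOXA1 ChIP-seq libraries with 1 peak list each and 3 input libraries, which were not analysed here.

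FOXA1 is a forkhead transcription factor called a pioneer factor, because it can bind its sites in closed chromatin and open them for other factors. In prostate epithelium and prostate cancer it prepares many of the enhancers that the androgen receptor uses. A ChIP-seq peak is a stretch where DNA fragments bound by the antibody's target pile up above background, and most FOXA1 peaks are known to lie in enhancers away from gene starts.

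The cells were 22Rv1, an established human prostate carcinoma line, in culture. Parental cells received DMSO at 0.1%, 20 µM of a stereoprobe (WX-02-23 in 1 sample, WX-02-43 in another) or PladB (pladienolide B, an inhibitor of the splicing factor complex that contains PHF5A), each for 3 h, or an siRNA, either siFOXA1 or siControl. No dose or time is given for the siRNAs or for doxycycline. The PladB dose of the parental sample is 100 nM in its own label and 10 nM in the shared protocol. All engineered cells overexpressed PHF5A with the Y36C change and carried a doxycycline-inducible FOXA1, either wild type (WT) or C258A, in which alanine replaces a cysteine. Each of these 2 lines was profiled without doxycycline (noDox, labelled DMSO) and in 2 induced states, 1 given DMSO and 1 given 20 µM WX-02-23. The engineered cells also hold their own FOXA1 gene, the antibody is labelled only as FOXA1, and whether a line is 1 clone is not given in the sources used here.

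With 1 library in every group, there was no spread between replicates to hold a difference against, and conditions were not tested against each other. The 12 lists held 3018 to 34119 peaks, read totals were not analysed here, and depth, enrichment and binding cannot be told apart as sources of a list's length. The WX-02-23 list held 17217 peaks and the WX-02-43 list 18228, both shorter than the DMSO (30557), PladB (33121) and siControl (34119) lists. All ranges in parentheses are Wilson 95% intervals for shares and order-statistic 95% intervals for medians. They cover counting error over peaks treated as independent, and nothing else. Coordinates are of build hg19, counted from 1. An hg19 genome was not used here, so the DNA sequence of the sites, their motifs and their nearest genes were not analysed here.

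Lost sites were weaker than retained sites in the DMSO library. They were found over most of the score range, but not among the highest scores. The score is the peak caller's value for each peak as deposited, was never under 90, and is compared here within a list. In the DMSO list the lost sites had a median score of 266 (260 to 271), and the retained sites one of 457 (447 to 467). The middle 50% of lost sites lay between 184 and 389, and that of retained sites between 242 and 857. Scores of 500 or more were held by 646 lost sites, and 1000 or more by 70. The strongest lost site scored 2354 and ranked 530 of all DMSO peaks, and the strongest retained site scored 3228.

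For scale, 52.8% of all DMSO peaks were not called with WX-02-23, and 28.9% of the 16547 shared sites, the DMSO peaks also called with siControl, PladB and WX-02-43. The DMSO list was cut into 10 bins of equal size by score, bin 1 holding the highest scores. Of the shared sites in bin 1, 75 of 3055 were lost (2.45%), in bin 2 340 of 3044 (11.2%), in bin 3 24.2%, in bin 4 37.7% and in bin 5 47.4%. The share went on to 67.3% (60.7 to 73.2%) in bin 10, where 144 of 214 shared sites were lost. The middle of the range gave most members: bins 3 to 6 held 699, 930, 874 and 693 lost sites. These shares restate the rule by score and are given as a description.

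**Figure D1:**
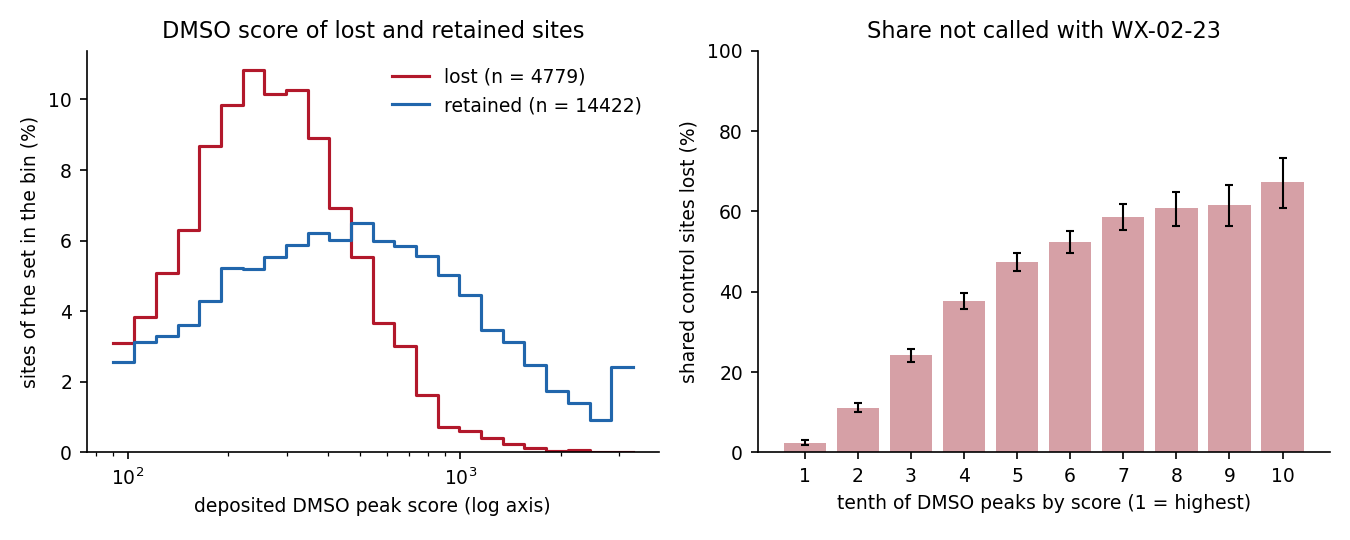
Left, share of lost (n = 4779) and retained (n = 14422) sites in each bin of the deposited DMSO score (log axis). Right, share of the 16547 shared sites not called with WX-02-23, by bin of DMSO score, with Wilson 95% intervals. The lost sites centre on a median of 266 and the retained ones on 457, and the share lost runs from 2.45% in bin 1 to 67.3% in bin 10.

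The lost sites also scored lower in the 3 other lists that the rule used. Their median score over that of the 11768 sites called in all 5 parental lists was 0.478 with PladB, 0.481 with siControl and 0.484 with WX-02-43, nearly the same in the 3 lists. Their median ranks were 13310, 13396 and 12792, in lists of 33121, 34119 and 18228 peaks. As a share of list length these ranks were unlike, at 40.2% with PladB, 39.3% with siControl and 70.2% with WX-02-43. For the sites called in all 5 lists they were at 18.9%, 18.5% and 34.4%. Among sites of like DMSO score the ratios were nearer to 1. Within bin 3 of DMSO score, lost sites had a median WX-02-43 score of 184 against 230 for sites called in all 5 lists, a ratio of 0.800. In that bin the ratio was 0.886 with PladB and 0.872 with siControl. Over the 10 bins the ratio ran from 0.689 to 0.878 with WX-02-43, from 0.804 to 0.997 with PladB and from 0.746 to 0.899 with siControl. It was thus under 1 in every bin of all 3 lists, and lowest with WX-02-43 in all bins except 8 and 9, where siControl was lower. These lists belong to the rule, and the values are a description.

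The distances of lost sites to WX-02-23 peaks, and the peaks near the lowest score listed, describe the margins of the rule. A WX-02-23 peak lay within 100 bp of 12 lost sites (0.251%, median DMSO score 170) and within 500 bp of 65 (1.36%, median 218). Within 5000 bp there were 511 (10.7%) and within 10000 bp 880 (18.4%). The median distance from a lost site to the nearest WX-02-23 peak was 45135 bp. These distances were not taken for other DMSO peaks, so they have no comparison. On the other side, 7 of the 11768 sites called in all 5 lists overlapped their WX-02-23 peak by 50 bp or less. Among those 11768, the WX-02-23 peak scored under 100 at 519 sites (4.41%), close to the lowest score listed, and under 120 at 1423 (12.1%). At 648 lost sites (13.6%) the WX-02-43 peak scored under 100, against 398 (3.38%) of the 11768, and at 1708 (35.7%) it scored under 120, against 1094 (9.30%).

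Lost sites were narrower than retained sites, and at equal score their width was nearly the same. The median width was 709 bp (702 to 713) for lost and 825 bp (820 to 831) for retained sites, and 682 bp (679 to 685) for all DMSO peaks. Within bins 2 to 10 of DMSO score the medians of lost and retained sites differed by -5 to 13.5 bp. In bin 3, for example, they were 834 and 839 bp. In bin 1 the lost sites were 120 bp narrower (1098 against 1218 bp, 75 lost sites). The widest lost site spanned 2428 bp and the widest retained site 8394 bp. In all, lost sites covered 3.53 Mb.

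The lost sites were spread along the chromosomes like other DMSO peaks and had lost neighbours about as often. The nearest other DMSO peak lay at a median of 23048 bp (21654 to 24178) from a lost site and 23292 bp (22541 to 23952) from a retained site. A DMSO peak within 10000 bp was present at 31.1% of lost and 31.0% of retained sites. Both sets had a median of 2 other DMSO peaks within 100 kb, and 10.8% of lost sites had none. The nearest DMSO peak was itself a lost site for 15.7% (14.7 to 16.8%) of lost sites and 15.6% (15.1 to 16.2%) of retained sites. Counting just neighbours that were shared sites, and so could be lost, 29.3% (27.6 to 31.1%) of the neighbours of lost sites and 28.2% (27.2 to 29.1%) of those of retained sites were lost. These intervals overlap. By score bin, the median distance was shorter for lost than for retained sites in bins 1, 2, 3, 5, 6 and 7 and longer in bins 4, 8, 9 and 10, and it was 13585 against 20163 bp in bin 1, with 75 lost sites.

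Along the DMSO list, 3415 lost sites (71.5%) stood between neighbours that were not lost, 524 pairs were consecutive, 74 runs held 3 sites and 21 held 4. The longest runs held 5 sites. The one with the higher summed score lay at chr5:55118806-55394269, with DMSO scores from 120 to 608, and the other at chr2:108504144-109121885, with scores from 158 to 407. The next, at chr6:134721902-135332238, held 4 sites with scores from 127 to 1448.

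Peaks that appeared with WX-02-23 were not found preferentially beside lost sites. Of the lost sites, 2.53% (2.12 to 3.02%) had a WX-02-23 peak absent from the DMSO list within 10000 bp, against 4.12% (3.81 to 4.46%) of retained sites. Of all DMSO peaks 3.38% (3.18 to 3.59%) had one. Within 100 kb the shares were 18.7% (17.6 to 19.8%) for lost sites, 20.8% (20.2 to 21.5%) for retained sites and 19.8% (19.3 to 20.2%) for all DMSO peaks. The median distance to such a peak was 373251 bp from lost and 342210 bp from retained sites. The parental WX-02-23 list belongs to the rule and the shares were not weighted by score, so these values are a description. Redirection of binding was not tested.

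Lost sites came from all 24 chromosomes, with the highest shares on chromosomes 17, 19 and 21. Of the shared sites, 168 of 420 (40.0%, 35.4 to 44.8%) were lost on chromosome 17, 107 of 299 (35.8%, 30.6 to 41.4%) on chromosome 19 and 50 of 144 (34.7%, 27.4 to 42.8%) on chromosome 21, against 28.9% overall. The lowest share was on chromosome 8, at 220 of 847 (26.0%). To allow for score, the number of lost sites was set against the number obtained when each of 10 score bins of shared sites was lost at its genome-wide share. The ratio was 1.27 on chromosome 17, 1.18 on 19, 1.29 on 21 and 0.80 on X. The same ratio for sites missed with WX-02-43 instead (2024 sites called with DMSO, WX-02-23, PladB and siControl) was 1.26, 1.27, 1.22 and 0.69 on these chromosomes. On chromosome 21 that rested on 15 sites against 12.3 obtained from score. Both comparisons share the DMSO, PladB and siControl lists, so the values are given side by side. It was 0.89, 0.86, 0.99 and 1.03 for DMSO peaks not called with WX-02-23 in induced WT cells, and 0.96, 1.05, 0.90 and 0.93 in C258A cells.

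Chromosomes 17 and 19 are the gene-dense ones, with 14.4 and 24.5 protein-coding genes per Mb, while chromosome 21 has 4.97. Over the 24 chromosomes, which share their libraries, the ratio for parental WX-02-23 and gene density had a Pearson r of 0.53 and a Spearman rho of 0.45, given as a description. Without chromosomes 17, 19 and 21 they were 0.40 and 0.45. The ratio for sites missed with WX-02-43 instead gave 0.57 and 0.37, and 0.40 and 0.28 without those chromosomes, so the trend was not particular to WX-02-23. For the share lost with parental WX-02-23 and no allowance for score, r and rho were 0.58 and 0.25, and 0.0087 and 0.10 without those chromosomes. For the ratio in induced WT cells the sign was opposite, at -0.76 and -0.65, and -0.66 and -0.58 without those chromosomes, and in C258A cells they were 0.20 and 0.27. Base composition and copy number were not analysed here. The 275 lost sites on chromosomes 17 and 19 were called less often in the engineered lines than other lost sites, for example 28.4% against 40.0% in induced WT cells with DMSO and 33.5% against 43.0% in C258A cells without doxycycline. Retained sites on those chromosomes had lower shares too, at 39.0% against 51.4% and 46.7% against 55.9%.

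On a grid of 1 Mb windows, 2191 of the 2884 windows with a DMSO peak held a lost site, 838 of them exactly 1. The window with the most, chr10:5000001-6000000, had 10 lost of 17 shared sites. A further 5 windows held 8 each: chr12:57000001-58000000 (of 14 shared), chr12:53000001-54000000 (of 16), chr1:145000001-146000000 (of 19), chr1:205000001-206000000 (of 20) and chr1:149000001-150000000 (of 33). Among the 1729 windows with 5 or more shared sites, 1 had lost them all, chr17:38000001-39000000 with 7 of 7, a window singled out after its values were seen, and 149 had lost none.

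The knockdown list was independent of the rule, and the lost sites were almost absent from it. With siFOXA1, 6 of the 4779 lost sites were called (0.126%, 0.0576 to 0.274%), against 1179 retained sites (8.18%, 7.74 to 8.63%) and 3.92% of all DMSO peaks. The gap was also present among sites of like score. In bin 3 of DMSO score, 0 of 699 lost sites and 169 of 2275 retained sites (7.43%, 6.42 to 8.58%) were called. In bin 4 the counts were 1 of 930 and 73 of 1775 (4.11%, 3.28 to 5.14%). Bins 1 to 4 together gave 3 of 2044 lost sites (0.147%, 0.0499 to 0.431%) and 1093 of 9741 retained sites (11.2%, 10.6 to 11.9%). Within these pooled bins the retained sites lay more in the higher bins, so the pooled shares are not at like score. In bin 1 alone the counts were 0 of 75, which allows a share of up to 4.87% (Wilson), and 506 of 2980 (15.7 to 18.4%). Retained sites weighted to the score bins of the lost sites gave 4.13% (3.79 to 4.47%).

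From the other side, 1217 of the 3018 siFOXA1 peaks overlapped a DMSO peak, 1196 of them at retained sites, 6 at lost sites and 15 elsewhere. The pattern was not particular to WX-02-23: of the 2024 sites missed with WX-02-43 alone, 6 were called with siFOXA1 (0.296%, 0.136 to 0.645%), and in bins 2 to 4 none of 320. Sites missing from either stereoprobe list were thus seldom on the siFOXA1 list, the shortest of the 12. How much FOXA1 the knockdown left was not analysed here.

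The uninduced engineered lines give calls in cells with no stereoprobe and no doxycycline. After weighting by parental score, lost sites were called more often than retained sites in C258A cells (a difference of 6.39 percentage points, 4.74 to 8.04) and by a small margin in WT cells (2.04, 0.594 to 3.49). Against sites called in all 5 parental lists the WT difference was 1.24, with an interval that covers 0 (-0.314 to 2.80). In bin 1 lost sites had the lower share in WT cells (81.3% against 86.9%). Of the lost sites, 25.6% (24.4 to 26.8%) were called in WT cells without doxycycline and 42.5% (41.1 to 43.9%) in C258A cells without it, against 26.3% and 38.1% of all DMSO peaks. Retained sites had 42.4% and 55.5%. Weighted to the score bins of the lost sites, the retained shares became 23.5% (22.8 to 24.3%) and 36.1% (35.2 to 36.9%), below those of the lost sites, so the order turned once score was taken into account. In bin 4 the C258A list without doxycycline held 51.2% of lost and 41.0% of retained sites. At least 1 of these lists held 2220 lost sites (46.5%) and 59.3% of retained sites, and both held 1031 (21.6%) and 38.6%, before any weighting. The WT and C258A lists differ in length (8575 and 12752 peaks), so their shares are not compared with each other.

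In induced WT cells, lost and score-weighted retained sites had similar shares with DMSO and different ones with WX-02-23. In induced WT cells with DMSO, 39.4% (38.0 to 40.8%) of lost sites and 50.9% of retained sites were called, 37.8% (36.8 to 38.7%) after weighting the retained sites by score, and 36.6% of all DMSO peaks. In the same cells with WX-02-23 the lost sites were at 19.9% (18.8 to 21.1%) and the retained sites at 46.1%, or 36.3% (35.4 to 37.3%) weighted, with 28.8% for all DMSO peaks. Lost sites were below retained ones in each of the 10 score bins with WX-02-23, for example at 40.0% against 73.6% in bin 1 and 18.0% against 34.5% in bin 5. With DMSO the corresponding values were 82.7% against 83.4% and 35.6% against 34.5%.

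In induced C258A cells, lost sites were also below score-weighted retained sites with WX-02-23 and close to them with DMSO. With DMSO, 15.7% (14.7 to 16.8%) of lost sites were called, against 15.1% (14.4 to 15.7%) of retained sites weighted by score and 17.3% of all DMSO peaks. With WX-02-23 the lost sites were at 20.8% (19.7 to 22.0%), the weighted retained sites at 28.6% (27.8 to 29.5%) and all DMSO peaks at 25.6%. The DMSO list of this line (13299 peaks) was shorter than its WX-02-23 list (20609). With the WX-02-23 list reduced to 13299 peaks, the share of lost sites was lower with WX-02-23 than with DMSO (12.2% against 15.7%), so the direction turned with list length, while the share of retained sites was 2.75 percentage points higher.

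**Figure D2:**
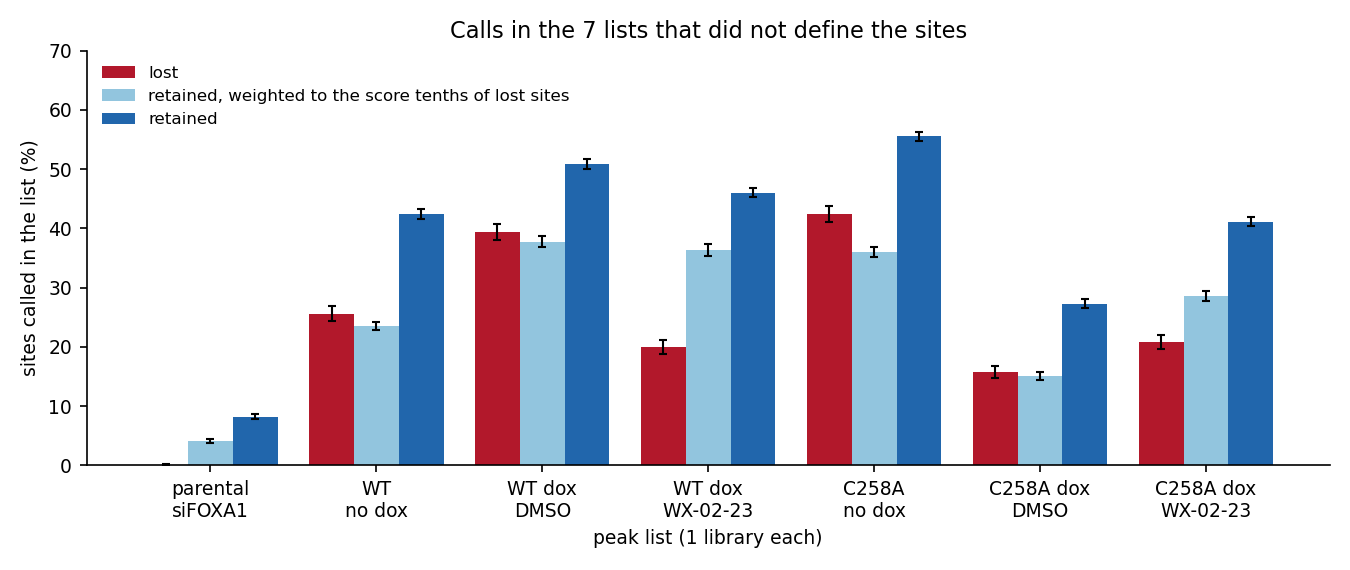
Share of lost sites (red), retained sites (dark blue) and retained sites weighted to the score bins of the lost sites (light blue) called in each of the 7 lists that did not define them, with 95% intervals over peaks. Red and light blue are close in the induced lists with DMSO (39.4% and 37.8% in WT, 15.7% and 15.1% in C258A). Red is below light blue with WX-02-23 (19.9% and 36.3%, 20.8% and 28.6%) and with siFOXA1 (0.126% and 4.13%). Without doxycycline red is above light blue (25.6% and 23.5% in WT, 42.5% and 36.1% in C258A).

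**Figure D3:**
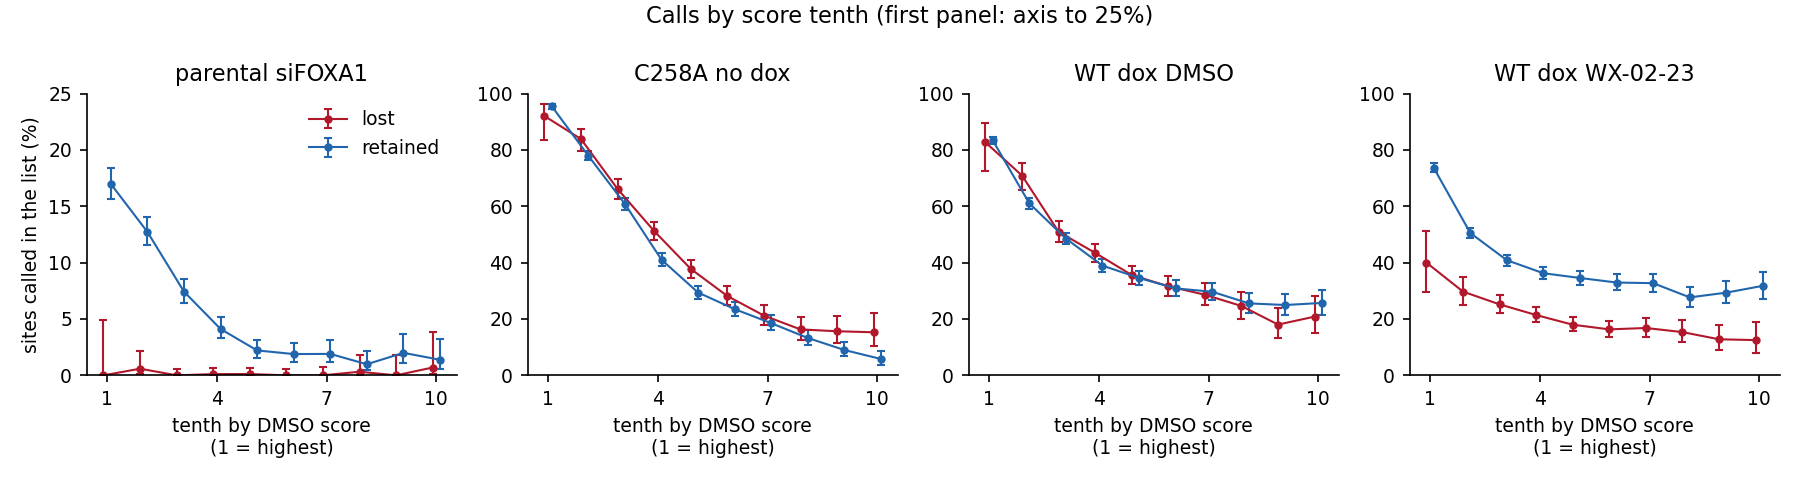
Share of lost (red) and retained (blue) sites called in 4 of the lists, by bin of parental DMSO score, with Wilson 95% intervals. The axis of the siFOXA1 panel ends at 25%. Lost sites lie above retained ones in bins 2 to 10 for C258A cells without doxycycline (51.2% against 41.0% in bin 4), run close to them in most bins for WT cells with DMSO, and lie below in all 10 bins for WT cells with WX-02-23 (40.0% against 73.6% in the highest).

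Retention was then measured within each line, as the share of parental DMSO peaks called there with DMSO that was also called there with WX-02-23. In WT cells 860 of 1881 lost sites (45.7%, 43.5 to 48.0%) and 5818 of 7338 retained sites (79.3%, 78.3 to 80.2%) were kept, against 68.1% of all parental DMSO peaks. In C258A cells 645 of 752 lost sites (85.8%, 83.1 to 88.1%) and 3739 of 3936 retained sites (94.3 to 95.6%) were kept, against 92.4%. Sites missed with WX-02-43 alone were kept at 76.2% (72.8 to 79.4%) in the WT line and at 93.9% (89.8 to 96.4%) in the C258A line. By their definition these sites were called with WX-02-23 in parental cells. They are thus a part of the retained sites and no matched control for the lost sites.

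Retention also differed with the score of the peak in the line itself. Each line's own DMSO list was cut into 5 score bins. In the highest bin of the WT list 90.2% (86.7 to 92.9%) of lost sites and 97.9% (97.2 to 98.4%) of retained sites were kept. In the middle bin the shares were 38.7% (33.9 to 43.6%) and 73.5% (71.0 to 75.9%), and in the lowest 19.3% and 42.1%. In C258A cells the highest bin was kept in full in both sets (139 of 139 and 1116 of 1116), the middle one at 91.1% (85.4 to 94.7%) and 97.2% (95.7 to 98.2%), and the lowest at 64.7% (56.9 to 71.8%) and 81.0% (77.7 to 83.9%). Lost sites were below retained sites in every bin of the WT list and in bins 2 to 5 of the C258A list.

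**Figure D4:**
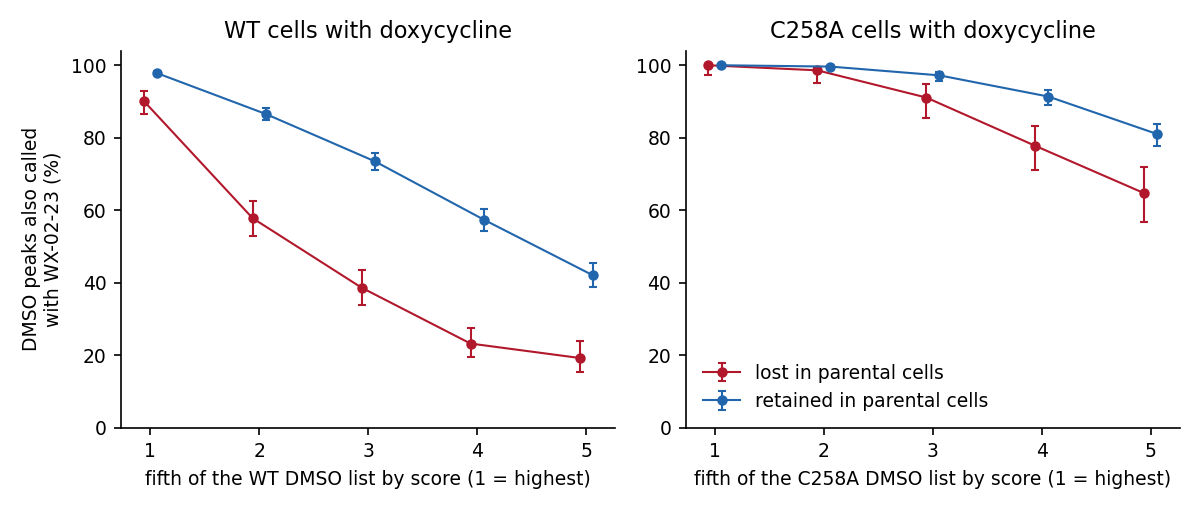
Share of parental DMSO peaks called with DMSO in the line that was also called there with WX-02-23, by the 5 score bins of that line's own DMSO list, for sites lost (red) and retained (blue) in parental cells, with Wilson 95% intervals. In WT cells the sets differ most in the middle (38.7% against 73.5%), and in C258A cells both start at 100% and part in the lower bins (64.7% against 81.0% in the lowest).

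The 4 induced lists differ in length, which bears on these shares. With all 4 reduced to 13299 peaks, lost and retained sites were kept at 44.9% and 78.6% in WT cells and at 65.8% and 85.4% in C258A cells. The gap between lost and retained sites held in both lines at that length. A comparison on the same sites is possible where both lines called a peak with DMSO. Of 737 such lost sites, 471 (63.9%, 60.4 to 67.3%) were kept in both lines, 163 (22.1%, 19.3 to 25.3%) in C258A cells alone, 34 (4.61%, 3.32 to 6.38%) in WT cells alone and 69 (9.36%) in neither. Of 3885 such retained sites, 89.9% were kept in both, 5.71% (5.03 to 6.49%) in C258A cells alone and 2.52% (2.07 to 3.06%) in WT cells alone. From DMSO to WX-02-23 the list grew in C258A cells (13299 to 20609 peaks) and shrank in WT cells (31735 to 25849), which bears on these shares. The comparison on the same sites was made at deposited length alone. With 1 library per condition the difference between the lines was not tested.

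Across the 6 engineered lists together, 1994 lost sites (41.7%) were called in none, against 28.5% of retained sites, and their median DMSO score was 216. With siFOXA1 added as a 7th list, 41.6% of lost sites and 44.9% of all DMSO peaks were called in none. The pattern shares that follow were not weighted by score and were not taken over all DMSO peaks. The next most frequent pattern was a call in C258A cells without doxycycline alone, at 444 lost sites (9.29%) and 6.94% of retained sites. All 6 lists held 224 lost sites (4.69%), against 2694 retained sites (18.7%). A call in both uninduced lists and in WT cells with DMSO, and nowhere else, was seen at 226 lost sites (4.73%) and 395 retained sites (2.74%). A call in every engineered list except WT with WX-02-23 was seen at 82 lost sites (1.72%), with a median DMSO score of 594, and at 143 retained sites (0.992%).

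The 15 sites named here were chosen by DMSO score, 6 of them also by their calls in the 7 lists outside the rule. The 6 strongest lost sites are called S1 to S6. S1, at chr3:30559389-30560785, scored 2354 with DMSO, 2824 with PladB, 2300 with siControl and 910 with WX-02-43. In WT cells S1 scored 296 without doxycycline and 213 with doxycycline and DMSO, and was not called with WX-02-23. In C258A cells it scored 923, 136 and 134 in the same order. S1 thus stood in all lists without WX-02-23 or knockdown, and with WX-02-23 in C258A cells alone.

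S2 (chr16:65030159-65031288, DMSO score 2223) and S4 (chr2:101726482-101727680, 1909) had the same calls as S1. S2 stood 359710 bp from the nearest DMSO peak. S2 scored 271 and 474 in WT cells without doxycycline and with DMSO, and 322, 278 and 247 in C258A cells. The WX-02-23 call of S4 in C258A cells scored 141, next to 124 with DMSO. S3 (chr11:111205092-111206195, DMSO score 2111) was called in WT cells without doxycycline (466) and with DMSO (231) and in C258A cells without doxycycline (934), but in neither induced C258A list.

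S5 and S6 were called in all 6 engineered lists. S5 (chr1:191907510-191908552, DMSO score 1880) had a neighbouring DMSO peak 31 bp away. In WT cells it scored 2050 with DMSO and 286 with WX-02-23, ranks at 0.539% and 26.7% of those lists. In C258A cells it scored 796 and 682, at 2.31% and 6.46%. S6 (chr17:35525400-35526412, DMSO score 1739) scored 1227 and 629 in WT cells, at 2.43% and 7.47%, and 593 and 669 in C258A cells, at 4.94% and 6.66%. Both sites, missed with WX-02-23 in parental cells, were thus listed with it in each engineered line. These lists differ in length, so their ranks are given side by side and no change is read from them.

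The 3 sites nearest the median score of 266 are S7, S8 and S9, at chr5:15009480-15009989, chr1:111534065-111534807 and chr12:125423567-125424802. Their WX-02-43 peaks scored 105, 149 and 123, in the lower part of that list. S8 and S9 were called in none of the 7 lists outside the rule. S7 was called in both uninduced lists (98.4 in WT and 137 in C258A), in WT cells with DMSO (140.2) and in C258A cells with WX-02-23 (112).

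The strongest lost sites called in none of the 7 lists are S10 (chr3:46706789-46708566), S11 (chr7:23371551-23373205) and S12 (chr16:11903714-11904693). Their DMSO scores were 1241, 1045 and 1027, and their WX-02-43 scores 377, 727 and 440. They ranked at 6.70%, 8.94% and 9.22% of the DMSO list. Of the 75 lost sites in bin 1, 72 were called in at least 1 of the 7 lists and these 3 in none (1.37 to 11.1%), against 18 of 2980 retained sites in bin 1 (0.604%, 0.382 to 0.953%). Over all bins, 41.6% of lost sites, 25.5% of retained sites and 44.9% of all DMSO peaks were called in none. S13, S14 and S15 are the strongest lost sites called with siFOXA1, at chr15:70372046-70372761, chr8:54860994-54861776 and chr1:8949996-8950822. Their siFOXA1 scores were 90.1, 99.7 and 149, the first of them at 99.9% of that list, next to its lowest score. S14 was the 1 lost site called in all 7 lists, with 1173 in WT cells with DMSO and 341 with WX-02-23.

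**Figure D5:**
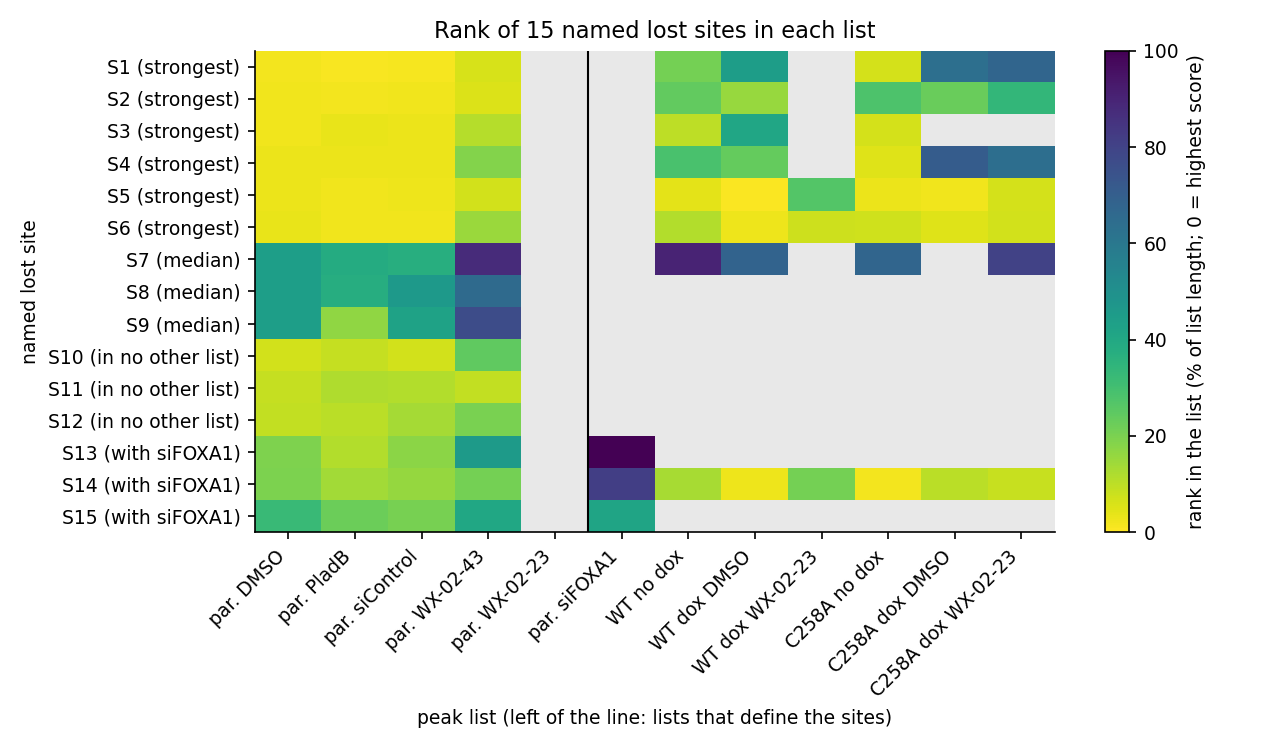
Rank of the 15 named lost sites (rows) in each of the 12 lists (columns), as a percentage of list length on the colour scale, with grey for not called. The column for parental WX-02-23 is grey by definition, S1 to S4 are also grey for WT cells with WX-02-23, and S10 to S12 are grey in all 7 lists right of the line.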

How the data were processed

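FOXA1 ChIP-seq of 22Rv1 cells was analysed from 12 deposited peak lists, 1 per library, each with a score per peak that the authors' peak caller gave. The definition of the score is not given in the sources used here. The submitters' processing notes name bcl2fastq, Bowtie2 and build hg19. The peak caller and its threshold are not given in them, and peak names begin with MACS. Read depth per library was not analysed here, so the precision rests on the number of peaks.

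Peaks were matched by an overlap of 1 bp or more in Python 3.11.15 with pandas 2.3.3, numpy 2.4.6 and scipy 1.17.1, and the code was tested on simulated lists. Shares have Wilson 95% intervals. Weighted shares average the retained sites' share in each of 10 DMSO score bins, weighted by the lost sites in that bin, with a binomial interval. With 1 library per group no test was made between conditions.

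The sites named are the 6 strongest, the 3 nearest the median score, and the 3 strongest each among those in none of 7 unused lists and those called with siFOXA1, with the 3 longest runs, the 1 Mb windows with most lost sites and the chromosomes with the highest and lowest share. Chromosomes 19, 21 and X and 1 window were added after their values were seen. The members and lists were chosen with earlier results of these data known. Alternatives were equal list length, reciprocal overlap of 50%, a gap of 500 bp, autosomes, WX-02-43 not required, and other comparison sets. Protein-coding genes per chromosome were counted from RefSeq on GRCh38.p14, whose coordinates were not used, and divided by the end of the last peak of any list on that chromosome. Planned motif, promoter and nearest-gene analyses were not run, since no hg19 genome was used here.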

Additional observations from a re-analysis of the deposited data

Results flagged for a closer look

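The share of lost sites called in induced cells moved in opposite directions in the 2 lines. In the WT line it was 39.4% with DMSO and 19.9% with WX-02-23, a change of -19.4 percentage points, and in the C258A line 15.7% and 20.8%, a change of 5.08. The opposite directions were not particular to lost sites. Retained sites changed by -4.83 in the WT line and by 13.9 in the C258A line. All parental DMSO peaks went from 36.6% to 28.8% in the WT line and from 17.3% to 25.6% in the C258A line. The difference between the lines was not tested, since each condition had 1 library. The lists differ in length in opposite directions as well (31735 to 25849 peaks in WT, 13299 to 20609 in C258A). With all 4 lists reduced to 13299 peaks, the changes were -7.64 in WT and -3.56 in C258A cells, both downward, and retained sites changed by 0.0763 and 2.75. The part of list length in the opposite directions was not tested beyond these values.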

How the results depend on the processing

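Most values depended on how sites were defined. Of the 9 lost minus retained differences in calls and retention, 4 changed sign under each of 3 weightings by score or rank. A 10th difference, in the share with a lost nearest DMSO peak, was weighted by DMSO score alone. It went from 0.0509 to -0.0158 percentage points, and both intervals covered 0. Leaving out X and Y moved none of 14 values by more than its interval. With lists longer than 17217 peaks reduced to that length, and the 4 shorter ones (siFOXA1, both uninduced lists and C258A with DMSO) left whole, the share lost was 20.1%, the median score 372, the width 786 bp and the nearest DMSO peak 43152 bp away. Calls were then 38.4% and 58.3% in uninduced WT and C258A cells, 27.6% and 14.0% in WT cells with DMSO and WX-02-23, 19.9% in C258A cells with DMSO, and C258A retention was 80.0%. With a reciprocal overlap of 50%, the share was 32.9%, the score 291 and the width 728 bp. Calls were 0.276% with siFOXA1, 14.6% and 39.9% uninduced, 17.0% in WT with WX-02-23, 13.1% and 18.4% in C258A with DMSO and WX-02-23, and retention was 38.9% and 82.7%. A gap of up to 500 bp moved the share with a lost nearest neighbour to 18.6%. With WX-02-43 not required, the share lost was 45.8%, the score 185, the width 639 bp and the lost neighbours 39.5%. Calls were then 15.9% and 28.5% uninduced, 27.6% and 14.8% in induced WT, and 9.55% and 13.6% in induced C258A cells. The lost-neighbour shares were not taken over retained sites under these alternatives. Of the 30557 DMSO peaks, 4816 were lost with the gap and 11646 with WX-02-43 not required, against 4779 as first defined.

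Differences (lost minus retained, percentage points) are given in the order siFOXA1, WT noDox, WT DMSO, WT WX-02-23, C258A noDox, C258A DMSO, C258A WX-02-23. As deposited they were -8.05, -16.8, -11.5, -26.1, -13.1, -11.6 and -20.3. Against sites called in all 5 lists they were -9.70, -24.0, -16.1, -29.0, -21.1, -15.5 and -24.5. Weighted by score they were -4.00, 2.04, 1.60, -16.4, 6.39, 0.684 and -7.83, and with both changes -4.68, 1.24, 1.90, -15.6, 6.01, 0.534 and -7.53. Weighted by mean rank in the DMSO, PladB and siControl lists they were -3.43, 2.90, 1.14, -16.7, 6.52, 0.438 and -8.62. Intervals of these weighted differences covered 0 for C258A DMSO under all 3 weightings, for WT DMSO under the first and the last, and for WT noDox under the second. The difference in WT retention was -33.6, and -30.3, -30.5 and -30.7 under the 3 weightings. The last 2 weightings and the common length of 13299 peaks were chosen after seeing the data. The cause of each shift was not tested.

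No paired analysis was possible because every group had 1 library. Depth is unknown, and no signal under the calling threshold is listed. The intervals hold no variation between cultures.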
